A study of Homo sapiens with 6 samples.

Results

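The 10 genes described here encode the inhibitors of cyclin-dependent kinases (CDKs) and the D-type cyclins, and they were taken by gene symbol from a count table of 61859 genes. They comprise the Cip/Kip inhibitors CDKN1A (p21), CDKN1B (p27) and CDKN1C (p57), the INK4 inhibitors CDKN2A, CDKN2B, CDKN2C and CDKN2D, and the cyclins CCND1, CCND2 and CCND3. All 10 were found in the table, 8 had enough counts to be tested, and CDKN2A and CDKN2B had no count in any library. RNA was sequenced from IOMM-Lee, a human cell line from a grade 3 meningioma, which is a malignant tumour of the meninges. One group of 3 biological replicates was kept in normoxia and one group of 3 in a hypoxia workstation at 0.2% oxygen, both for 48 h. Both groups were the same line in the same serum-containing medium, and the labels give no oxygen level for normoxia and no genetic change. The comparison asks how gene expression differs after 48 h of low oxygen, and it rests on 1 cell line.

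Progress from G1 into S phase depends on D cyclins, which bind and activate CDK4 and CDK6 so that these kinases phosphorylate the retinoblastoma protein and release E2F factors. INK4 proteins bind CDK4 and CDK6 and keep D cyclins from them. Cip/Kip proteins bind whole cyclin-CDK complexes, restrain those that contain CDK2, and can also help D cyclins assemble with their kinases. CDKN2A encodes both the INK4 protein p16 and, in another reading frame, ARF, and loss of CDKN2A and CDKN2B is a known mark of aggressive meningioma.

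Normoxia libraries held between 14685317 and 19554178 counts and hypoxia libraries between 10619864 and 18447885. Mitochondrial genes took 6.42% to 7.29% of counts in normoxia and 2.05% to 3.05% in hypoxia, a difference that moved with every comparison below and whose part in them was not tested. Levels are given as CPM, counts scaled to a common library total after adjustment by trimmed mean of M values (TMM), and changes are hypoxia against normoxia with the standard error (SE) from edgeR. In a principal component analysis the second component, with 7.83% of the variance, set hypoxia replicate 3 at 47.7 apart from hypoxia replicates 1 and 2 at -27.2 and -20.1, so results that depend on this library are marked. Of the meningioma markers, VIM averaged 3052 ± 429 CPM under normoxia and 6149 ± 930 under hypoxia (SD, n = 3), whereas PTGDS, PGR and ALPL were at or near 0 in every library and SSTR2 averaged 0.844 and 0.300 CPM. Of the 10 markers in this list 7 could be tested, 4 were higher and 1 was lower, beside 31.2% and 31.0% of all tested genes. Markers of leukocytes summed to at most 1.12 CPM, of endothelium to at most 3.73 CPM and of keratinocytes to at most 0.311 CPM in any library, while 5 neural and glial markers summed to between 17.3 and 21.8 CPM in normoxia and between 19.2 and 23.0 in hypoxia. Of the 4 tested in that list 1 was higher, SNAP25 at 1.52 ± 0.277 and 7.94 ± 1.30 CPM, and 1 was lower, OLIG2 at 6.95 ± 0.611 and 3.96 ± 1.65 CPM.

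All 8 tested genes differed between hypoxia and normoxia, 6 higher and 2 lower in hypoxia. Every tested inhibitor rose, CDKN1C the most at 5.53-fold, then CDKN1B at 3.74-fold, CDKN2D at 2.82-fold, CDKN1A at 2.77-fold and CDKN2C at 1.25-fold. The D cyclins split, with CCND2 1.49-fold higher, CCND1 1.30-fold lower and CCND3 2.14-fold lower. Over all 16411 tested genes 62.2% were called (edgeR quasi-likelihood test, adjusted p under 0.05), 31.2% higher and 31.0% lower, so a changed gene was common in these libraries. In RNA from whole cultures, fewer cells with a transcript cannot be told apart from less of it in each cell. The 2 groups did not overlap in CPM for any of the 8 tested genes, which was also true of 67.9% of all tested genes. The median change of the 8 was 1.02 on the log2 scale, beside 0.0094 for all tested genes. Each of the 8 had at least 13 counts in every library. With scaling by library totals alone, which moved the median of all genes to -0.30, 4 members were higher and 2 lower, and the rises in CDKN2C and CCND2 were no longer called. That scaling called 3421 of the 16411 tested genes higher and 6905 lower. Without hypoxia replicate 3 the counts were again 6 higher and 2 lower, and 48.4% of all called genes were higher.

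**Figure D1:**
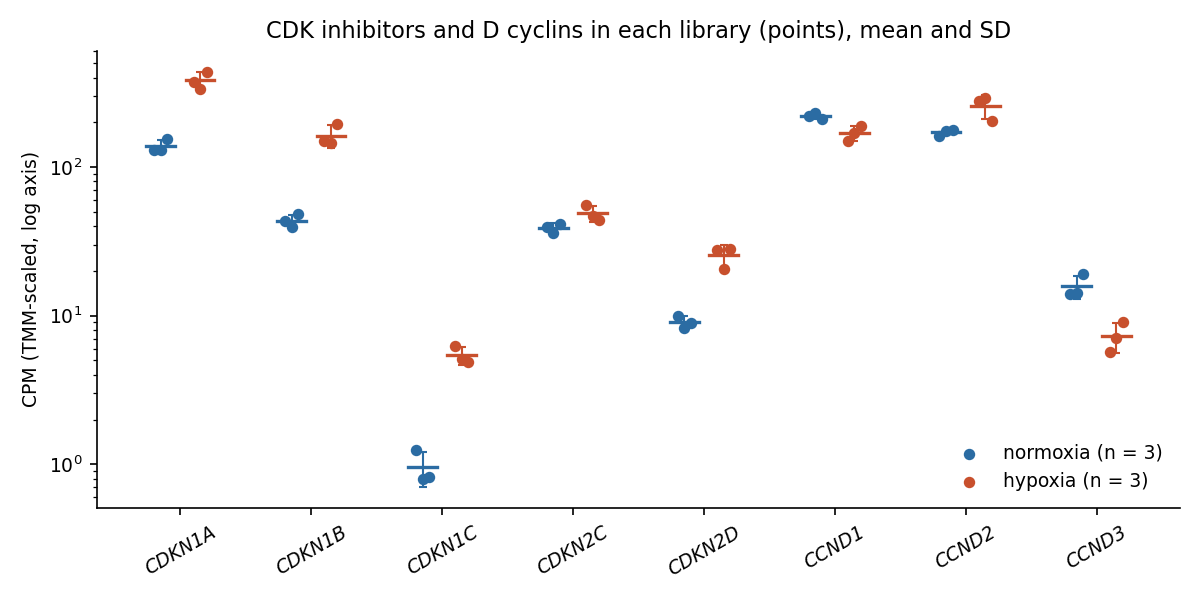
CPM (log axis) of the 8 tested CDK inhibitors and D cyclins in the 3 normoxia and 3 hypoxia libraries, with points for libraries, lines for group means and bars for SD. CDKN1A, CDKN1B, CDKN1C and CDKN2D lie well above normoxia in each hypoxia library, while CCND1 and CCND3 lie below.

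The 3 Cip/Kip genes rose in every hypoxia library. CDKN1A (ENSG00000124762, GRCh38 chromosome 6, 36676460 to 36687339, plus strand), which encodes the p21 protein, was at 130, 130 and 155 CPM in normoxia and at 374, 337 and 440 CPM in hypoxia. The highest normoxia library stayed below the lowest hypoxia library by a wide margin. Its log2 change was 1.47 ± 0.12 (SE; edgeR adjusted p = 2.32e-06). CDKN1B (ENSG00000111276, chromosome 12, 12715058 to 12722371, plus strand), which accumulates in resting cells, was at 43.3, 39.3 and 48.0 CPM in normoxia and at 149, 145 and 195 CPM in hypoxia. Hypoxia replicate 3 was the highest for both genes. The log2 change of CDKN1B was 1.90 ± 0.13 (edgeR adjusted p = 8.61e-07), and it was 1.72 without that library. CDKN1C (ENSG00000129757, chromosome 11, 2883213 to 2885773, minus strand), an imprinted growth restrainer, was the scarcest at 28, 13 and 14 counts in normoxia and 59, 50 and 81 in hypoxia. In CPM this was 1.24, 0.797 and 0.817 in normoxia and 6.22, 5.10 and 4.88 in hypoxia, and the groups did not overlap. Its log2 change of 2.47 ± 0.29 (edgeR adjusted p = 3.64e-05) has the widest interval of the set, from 1.82 to 3.12, and rests on few reads.

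The sequences just upstream of the RefSeq start (GRCh38.p14) are shown for CDKN1A, CDKN1B and CDKN2D. These are the 3 clearly rising inhibitors that have a single start in the RefSeq promoter table, which has no entry for CDKN1C, CCND1 or CCND2. The RefSeq starts of the genes shown differ from the starts of the gene spans given here, which come from GENCODE. The CDKN1A and CDKN1B windows lie inside those wider spans, and the CDKN2D window overlaps its span in part. Each is the 250 bases before the start, 5′ to 3′ on the gene's strand, and capitals mark matches to ACGTG or GCGTG, the core of the element that hypoxia-inducible factors bind, on either strand (CACGT and CACGC are the reverse complements).
CDKN1A (chr6:36678464-36678713, plus strand): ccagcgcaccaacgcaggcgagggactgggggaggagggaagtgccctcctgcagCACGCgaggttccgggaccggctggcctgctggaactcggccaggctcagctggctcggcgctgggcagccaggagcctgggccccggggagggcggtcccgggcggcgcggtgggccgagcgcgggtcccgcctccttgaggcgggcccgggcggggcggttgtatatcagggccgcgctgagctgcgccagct
CDKN1B (chr12:12717118-12717367, plus strand): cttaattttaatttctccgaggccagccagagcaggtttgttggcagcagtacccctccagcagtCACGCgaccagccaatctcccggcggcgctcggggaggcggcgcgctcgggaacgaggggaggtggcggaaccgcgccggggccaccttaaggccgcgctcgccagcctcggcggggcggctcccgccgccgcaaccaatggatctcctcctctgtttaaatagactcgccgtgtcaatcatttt
CDKN2D (chr19:10568980-10569229, minus strand): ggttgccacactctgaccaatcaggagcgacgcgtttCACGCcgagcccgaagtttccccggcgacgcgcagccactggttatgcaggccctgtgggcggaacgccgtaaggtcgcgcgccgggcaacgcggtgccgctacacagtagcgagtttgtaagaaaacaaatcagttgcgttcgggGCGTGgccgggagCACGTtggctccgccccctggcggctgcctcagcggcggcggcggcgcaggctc
The CDKN1A window held 1 match, which begins 195 bases before the start, and the CDKN1B window 1 match, 185 bases before the start. The CDKN2D window held 3, beginning 213, 67 and 54 bases before the start, of which 1 is ACGTG. Such short words are frequent: 43.2% of 35116 windows of this length in the table held at least 1 of them. Of 12 windows for the 7 member genes in the table, 9 held at least 1. They included the windows of CDKN2A, which had 0 counts, and of CDKN2C, which rose little. A window of CCND3, which fell, also held a match, while its other windows and that of CDKN2B held none. The GC box GGGCGG, on either strand, was found in 42.6% of all windows. With overlapping matches counted, it occurred 4 times in the CDKN1A window, 1 time in the CDKN1B window and 2 times in the CDKN2D window. A match describes the letters only, and binding was not measured.

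Among the INK4 genes, CDKN2D rose clearly and CDKN2C little. CDKN2D (p19; ENSG00000129355, chromosome 19, 10566462 to 10569059, minus strand) was at 10.0, 8.21 and 8.87 CPM in normoxia and at 27.7, 20.6 and 28.3 CPM in hypoxia. All hypoxia libraries lay above all normoxia libraries, and the log2 change was 1.50 ± 0.16 (edgeR adjusted p = 1.97e-05). CDKN2C (p18; ENSG00000123080, chromosome 1, 50960745 to 50974633, plus strand) was at 39.7, 36.0 and 41.3 CPM in normoxia and at 55.4, 47.0 and 43.9 CPM in hypoxia. The groups nearly met, since the third replicate was the highest of normoxia and the lowest of hypoxia. The log2 change of CDKN2C was 0.32 ± 0.12 (edgeR adjusted p = 0.0368; 95% interval from 0.056 to 0.58). When libraries were scaled by their totals only it was 0.0072 (edgeR adjusted p = 0.963), and the call was also lost on leaving out any single library other than hypoxia replicate 3 (edgeR adjusted p from 0.0593 to 0.193).

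CDKN2A and CDKN2B had 0 counts in all 6 libraries. They were among 21562 of the 61859 genes that had no count in any library. CDKN2A (ENSG00000147889) spans 21967753 to 21995301 and CDKN2B (ENSG00000147883) 22002903 to 22009363, both on the minus strand of chromosome 9. A count of 0 allows up to 3 counts, or between 0.133 and 0.316 CPM depending on the library, and this limit covers counting error only. Few of the 75-base windows of their annotated transcripts occur in another gene, 5.96% for CDKN2A (in CDKN2B and CDKN2B-AS1) and 0.15% for CDKN2B, so most reads from either gene could have been placed at that window length, and the read length is not given in the sources used here. Because counts are per gene, p16 and ARF RNA are both covered by the 0. RNA counts do not show whether the DNA of these genes is present in the line.

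Genes on both sides of the pair were expressed. MTAP, a methionine salvage enzyme gene that lies past the 3′ ends of the pair at 21802543 to 21937651, was at 166, 182 and 173 CPM in normoxia and at 51.4, 45.5 and 43.0 CPM in hypoxia, a log2 change of -1.90 ± 0.10 (edgeR adjusted p = 1.31e-07). DMRTA1, on the other side at 22446841 to 22455740 and chosen for its place after its values were seen, was at 36.8 ± 2.64 and 39.4 ± 6.79 CPM (SD, n = 3; edgeR adjusted p = 0.526). The long non-coding RNA CDKN2B-AS1 (21994778 to 22121097, plus strand), whose gene runs across CDKN2B on the opposite strand, had 99, 81 and 57 counts in normoxia and 12, 25 and 41 in hypoxia. Its levels of 4.23 ± 0.830 and 2.09 ± 0.719 CPM gave a log2 change of -0.99 ± 0.31 (edgeR adjusted p = 0.0172, or 0.0684 without normoxia replicate 2). The counts per gene do not show from which exons these reads came. Of 10 listed neighbours on 9p21, 7 were tested, 1 was higher and 5 were lower, beside 31.2% and 31.0% of all tested genes. MLLT3, a chromatin reader gene of the elongation machinery, was the one that rose, from 16.0 ± 1.16 to 225 ± 15.9 CPM, and HACD4, a fatty acid elongation enzyme gene, fell by 1.50 on the log2 scale. IFNB1, encoding interferon beta, was the 1 listed neighbour that also had 0 counts in all libraries, and it was singled out after its values were seen.

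**Figure D2:**
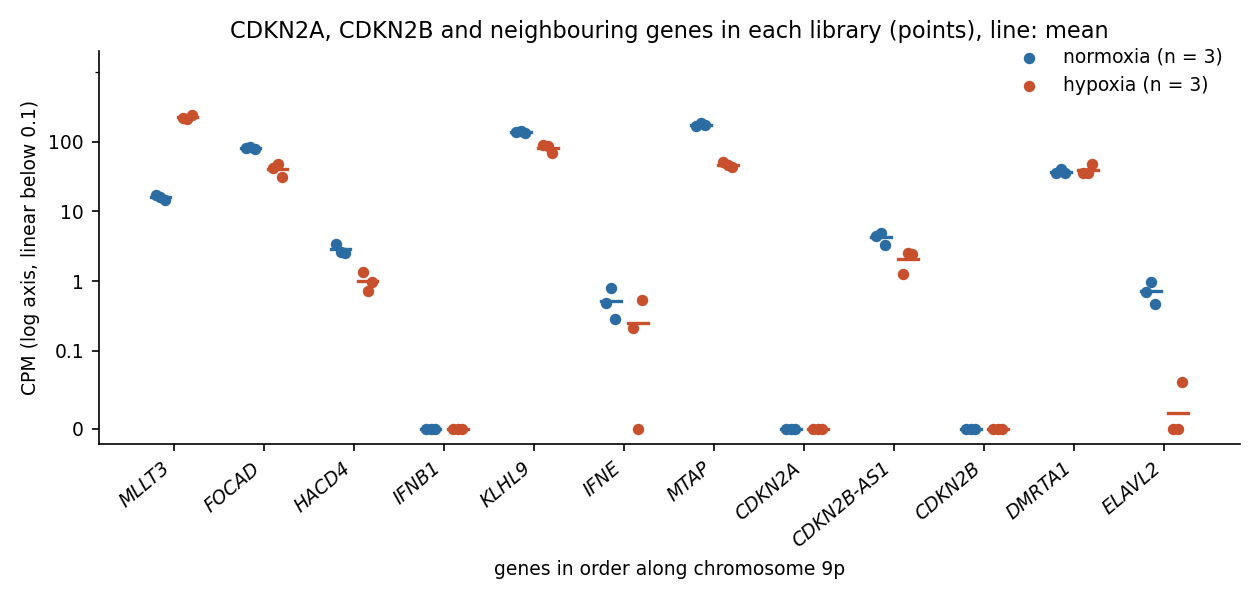
CPM of CDKN2A, CDKN2B and the 10 listed neighbours, in their order along the chromosome, for each normoxia and hypoxia library (points) with group means (lines). The axis is logarithmic above 0.1 and linear below. CDKN2A and CDKN2B sit at 0 in all 6 libraries, between MTAP and DMRTA1, both well above 10 CPM.

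The D cyclins moved in different directions. CCND1 (ENSG00000110092, chromosome 11, 69641087 to 69654474, plus strand), the D cyclin most tied to growth factor signals, was at 221, 230 and 211 CPM in normoxia and at 149, 170 and 189 CPM in hypoxia. The ranges did not overlap, and the log2 change was -0.38 ± 0.10 (edgeR adjusted p = 0.00812). CCND2 (ENSG00000118971, chromosome 12, 4273772 to 4305350, plus strand), a second mitogen-responsive D cyclin, was at 163, 176 and 179 CPM in normoxia and at 277, 293 and 203 CPM in hypoxia. Hypoxia replicate 3 stood closest to normoxia. The log2 change of CCND2 was 0.58 ± 0.13 (edgeR adjusted p = 0.00292), 0.70 without hypoxia replicate 3, and 0.27 when libraries were scaled by their totals only (edgeR adjusted p = 0.0934). CCND3 (ENSG00000112576, chromosome 6, 41934933 to 42050357, minus strand), the D cyclin best known from lymphocytes, was at 14.1, 14.2 and 19 CPM in normoxia and at 5.69, 7.03 and 9.03 CPM in hypoxia. Every hypoxia library was below every normoxia library, and the log2 change was -1.10 ± 0.21 (edgeR adjusted p = 8.41e-04). Without a stated strand setting, reads shared with genes on the other strand cannot be told apart: LTO1 covers 10.3% of the exon bases of CCND1 and was itself at 10.2 ± 0.403 and 6.53 ± 1.44 CPM. A gene of the same strand, ENSG00000285901, covers 13.8% of those of CCND2, and it had 0 counts in all libraries.

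**Figure D3:**
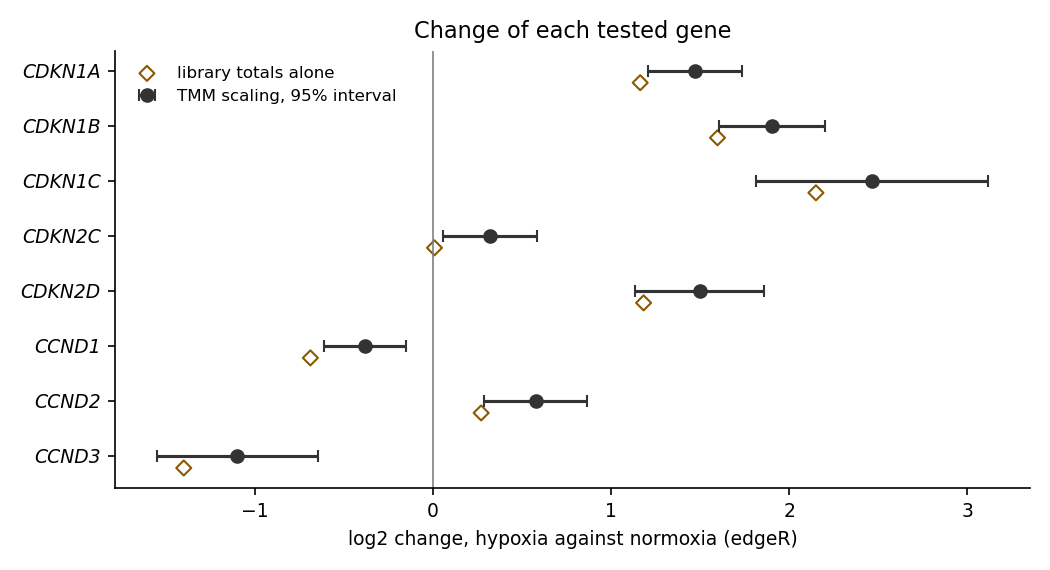
The log2 change of each tested gene, hypoxia against normoxia, with filled circles for TMM scaling and bars for its 95% interval, and open diamonds for scaling by library totals alone. The 4 inhibitors other than CDKN2C lie above 1 under both scalings, and CDKN2C moves from 0.32 to 0.0072.

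Ratios between 2 members within a library depend little on how libraries are scaled, and 5 pairs were compared. The log2 ratio of CDKN1A to CCND1 was -0.76, -0.82 and -0.45 in normoxia and 1.33, 0.98 and 1.21 in hypoxia, so CDKN1A counts were below those of CCND1 in each normoxia library and above in each hypoxia library. The difference of means was 1.85, a 3.61-fold shift. CCND2 relative to CCND1 went from -0.44, -0.39 and -0.24 to 0.90, 0.78 and 0.10, a difference of 0.95 in which hypoxia replicate 3 stood nearest to normoxia and which was 1.19 without it. CDKN2C relative to CDKN2D fell by 1.13, CDKN1A relative to CDKN1B fell by 0.42, and CCND1 relative to CCND3 differed by 0.69. The groups did not overlap for any of the 5 pairs. Each gave p = 0.1 in a two-sided exact permutation test, the smallest that 3 against 3 libraries allow, and 0.1 after Benjamini-Hochberg adjustment over the 5 pairs. A p at that floor does not separate the pairs from each other.

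To compare levels between genes, CPM were divided by exon length in kilobases. In normoxia CCND1 was the highest D cyclin at 45.7 ± 1.96 CPM per kilobase, followed by CCND2 at 24.1 ± 1.21 and CCND3 at 2.72 ± 0.487 (SD, n = 3), with no overlap. In hypoxia CCND1 at 35.1 ± 4.20 and CCND2 at 36.0 ± 6.71 overlapped: CCND2 was above CCND1 in hypoxia replicates 1 and 2 and below it in replicate 3. CCND3 was at 1.25 ± 0.289. Before division by length CCND2 was above CCND1 in every hypoxia library, at 203 against 189 CPM in replicate 3. CCND1 made up 63.0% ± 2.02 of the summed D cyclin level in normoxia and 48.6% ± 7.06 in hypoxia, and CCND2 33.2% ± 1.36 and 49.6% ± 7.51. The summed D cyclin level was 72.5 ± 1.94 CPM per kilobase in normoxia and 72.3 ± 4.41 in hypoxia, so the group means were closer than the spread between libraries. That closeness depends on the scaling, since with library totals the log2 difference of the sums was -0.32 rather than -0.0059.

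Among inhibitors CDKN1A led in both conditions, at 45.4 ± 4.58 CPM per kilobase in normoxia and 126 ± 17.0 in hypoxia (SD, n = 3). It held 57.4% ± 1.82 of the summed inhibitor level in normoxia and 57.8% ± 0.398 in hypoxia. CDKN1B came next at 15.5 ± 1.55 and 57.9 ± 9.93, with a share of 19.6% ± 0.460 and 26.6% ± 1.61. CDKN2C held the third place in normoxia with 11.8 ± 0.828, ahead of CDKN2D with 6.01 ± 0.612. In hypoxia these 2 overlapped, CDKN2C at 14.7 ± 1.79 and CDKN2D at 17.0 ± 2.86, and the share of CDKN2C went from 14.9% ± 0.540 to 6.85% ± 1.32. CDKN1C was the lowest of the 5 tested inhibitors in both conditions, at 0.384 ± 0.102 and 2.18 ± 0.291, above only CDKN2A and CDKN2B at 0. The summed inhibitor level was 77.3, 73.3 and 86.4 CPM per kilobase in normoxia and 213, 192 and 247 in hypoxia. Divided by the summed D cyclin level it was 1.09 ± 0.109 in normoxia and 3.03 ± 0.551 in hypoxia. These sums combine chosen genes and are given without a test. With the length of the longest protein-coding transcript in place of all exons, an alternative chosen after seeing the data, the quotient was 1.16 ± 0.108 and 3.29 ± 0.580.

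**Figure D4:**
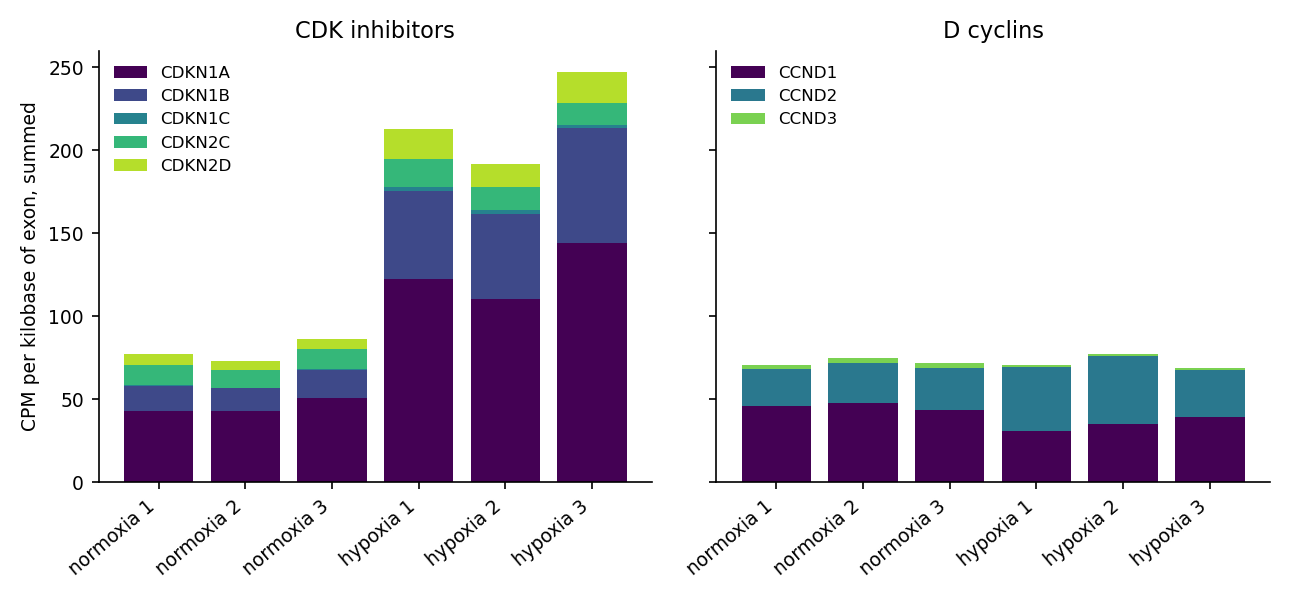
CPM per kilobase of exon in each of the 6 libraries, stacked by gene, for the CDK inhibitors (left) and the D cyclins (right) on the same axis. The inhibitor stacks reach between 192 and 247 in hypoxia against 73.3 to 86.4 in normoxia, while the D cyclin stacks differ mainly in the parts of CCND1 and CCND2.

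Of the kinases that these proteins bind, CDK4 and CDK2 were lower and CDK6 was not called. CDK4 was at 67.9, 69.2 and 77.9 CPM in the normoxia libraries and at 48.5, 53.1 and 43.3 CPM in the hypoxia libraries, a log2 change of -0.57 ± 0.11 (edgeR adjusted p = 0.0011). CDK6, the other partner of D cyclins, was at 125 ± 9.81 and 123 ± 16.1 CPM (SD, n = 3), with overlapping libraries and a 95% interval of the log2 change from -0.27 to 0.23 (edgeR adjusted p = 0.884). When libraries were scaled by their totals only, CDK6 was called lower, at -0.33 (edgeR adjusted p = 0.0367). CDK2, the partner of cyclins E and A and a target of Cip/Kip inhibitors, was at 55.9, 57.4 and 60.0 CPM in the normoxia libraries and at 20.1, 24.5 and 26.9 CPM in the hypoxia libraries, 2.41-fold lower (edgeR adjusted p = 8.56e-06). Of 19 listed G1 kinases, later cyclins and their activators, 18 were tested, 13 were lower and 1 was higher, with a median log2 change of -0.53. Over all tested genes 31.0% were lower and 31.2% higher. The phosphatase gene CDC25A, which activates CDK2, was 9.66-fold lower, from 9.05 ± 0.440 to 0.896 ± 0.410 CPM, and CCNE2, a cyclin E gene, was 2.98-fold lower. CDC25B, a phosphatase that acts at entry to mitosis, was the one higher, at 81.6, 87.9 and 159 CPM in hypoxia against 67.6 ± 1.11 in normoxia. Its log2 change of 0.70 (edgeR adjusted p = 0.0344) was 0.30 without hypoxia replicate 3 (0.0073). The call was lost on leaving out any single normoxia library, with the change between 0.67 and 0.70, and with library totals alone (0.184).

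Downstream of the kinases, RB1 was at 140 ± 8.55 and 147 ± 30.4 CPM (SD, n = 3; edgeR adjusted p = 0.647, with a 95% interval of the log2 change from -0.22 to 0.38), and its log2 change of 0.075 was -0.13 without hypoxia replicate 3. Of 13 pocket protein and E2F genes, all of them tested, 8 were lower and 2 were higher, with a median log2 change of -0.56. The shares over all tested genes were 31.0% lower and 31.2% higher. E2F1, an activator of S-phase genes, was at 13.3, 13.5 and 13.8 CPM in the normoxia libraries and at 2.95, 3.26 and 3.61 CPM in the hypoxia libraries, 4.09-fold lower. E2F2, another activator, fell from 118, 53 and 68 counts to 1, 3 and 3 counts, at or under the floor in hypoxia. The rises were in the repressor gene E2F7, from 47.6 ± 2.72 to 99.4 ± 47.7 CPM with 154 in hypoxia replicate 3, and in E2F5, 1.41-fold. The log2 change of E2F7 was 1.07, and 0.57 without hypoxia replicate 3 (edgeR adjusted p = 1e-04). Neither rise was called when libraries were scaled by their totals only (edgeR adjusted p = 0.076 and 0.294), and the E2F7 call also without normoxia replicate 2 (0.0597) and with no filter on low counts (0.165).

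Turnover of the inhibitors and cyclins is run by ubiquitin ligases, and 23 of their genes and helpers were listed. Of 21 tested, 10 were lower and 4 higher, although the median log2 change was 0.077. Among all tested genes 31.0% were lower and 31.2% higher. SKP2, the substrate receptor that marks p27 for degradation, was at 78.1, 76.7 and 69.6 CPM in the normoxia libraries and at 16.7, 18.7 and 17.4 CPM in the hypoxia libraries. These groups lay far apart, at a log2 change of -2.09 ± 0.11 (edgeR adjusted p = 1.12e-07). FBXO4, reported as a receptor for cyclin D1, fell by 2.68 on the log2 scale, and PCNA, the clamp on which p21 is degraded, by 2.37. FZR1, an activator of the anaphase-promoting complex that keeps SKP2 low in G1, was 2.53-fold higher, and CUL4B, a ligase scaffold, 1.97-fold higher.

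Of 34 listed transcription regulators of the members, 33 were tested, 17 were higher and 3 lower, with a median log2 change of 0.32. With library totals alone 10 rather than 3 were lower, and of all 16411 tested genes 6905 rather than 5091 were lower. With TMM scaling 31.2% of all tested genes were higher and 31.0% lower. BHLHE40 and BHLHE41, clock-linked repressors, were 15.2-fold and 13-fold higher. ID1, an inhibitor of helix-loop-helix factors, and CTNNB1, which encodes beta-catenin, were 1.79-fold and 1.73-fold lower. FOXO3, an activator of CDKN1B that was singled out after its values were seen, was 3.20-fold higher. It was at 70.3, 72.3 and 75 CPM in the normoxia libraries and at 223, 236 and 236 CPM in the hypoxia libraries. FOXO1 and FOXO4, of the same family and list, were not called, at log2 changes of 0.10 and -0.050 (edgeR adjusted p = 0.595 and 0.879). Near the imprinted CDKN1C on 11p15, 7 of 12 listed genes were tested, 3 were higher and 1 lower, beside 31.2% and 31.0% of all tested genes. KCNQ1OT1, the long RNA linked to silencing of the paternal CDKN1C copy, was 2.50-fold higher, CARS1, a transfer RNA ligase gene, was 1.40-fold higher and PHLDA2, an imprinted growth restrainer, was 1.93-fold lower. The CARS1 rise was not called when libraries were scaled by their totals only (edgeR adjusted p = 0.21).

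**Figure D5:**
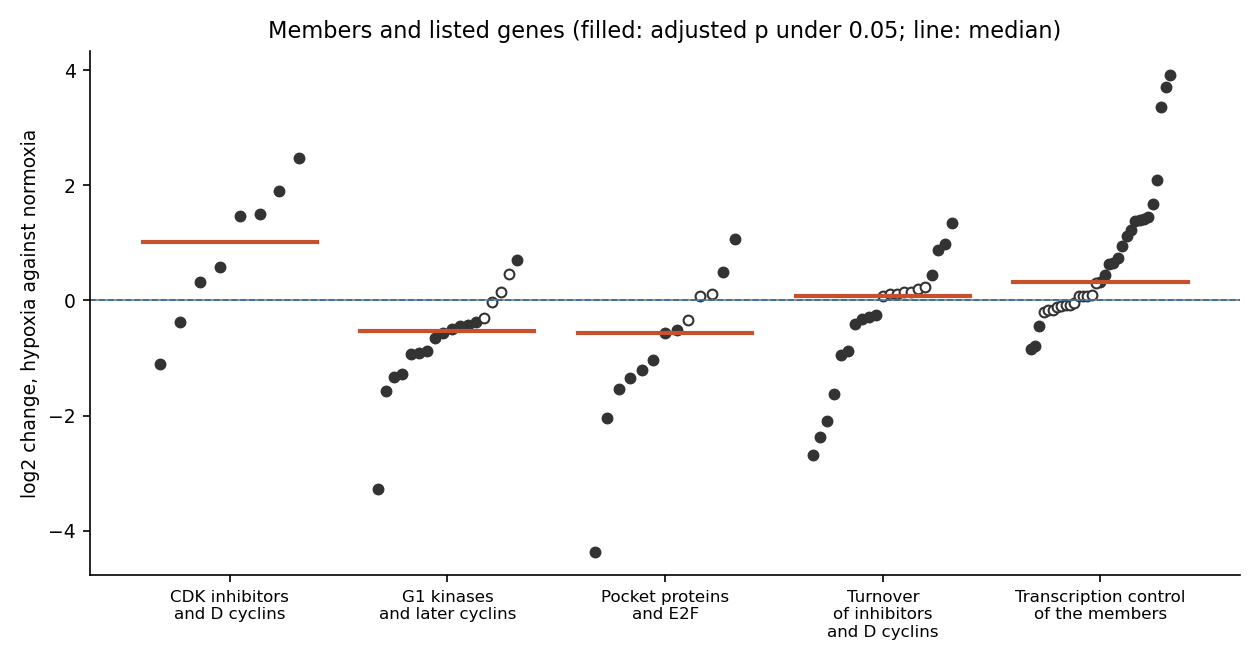
The log2 change of every tested member and of 4 lists of related genes, hypoxia against normoxia, with filled points for edgeR adjusted p under 0.05, open points otherwise, solid lines for list medians and a dashed line for the median of all tested genes. The medians are 1.02 for the members, -0.53 for G1 kinases and later cyclins, -0.56 for pocket proteins and E2F, 0.077 for turnover and 0.32 for transcription control.

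Likeness of pattern was measured as Pearson's r of log2 CPM over the 6 libraries among 8981 protein-coding genes with mean CPM of at least 10. For CDKN1A the nearest were PIM1, a kinase gene, at 0.9999, CDR2L at 0.9992 and the pyruvate kinase gene PKM at 0.9989. For CDKN1B they were SRP68, MARCHF9 and ZBTB4, at 0.9995, 0.9994 and 0.9993. For CCND1 they were HPS5 at 0.999, TOPBP1 at 0.9988 and RPAP3 at 0.9966. With 2 groups this measure mostly reflects the difference between them: 1690 genes had r above 0.95 with CDKN1A, 1757 with CDKN1B and 359 with CCND1.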

How the data were processed

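RNA sequencing gave 6 libraries of IOMM-Lee cells, 3 per group, grouped by their titles, which call them biological replicates. The values used are raw counts of reads, 1 line per Ensembl ID, as deposited by the authors. Among the tools in the submitters' processing notes are HISAT2 2.1.0 and featureCounts 2.0.1, besides fastp 0.20.1 and DESeq2 1.37.5. The build in those notes is GRCh38.p13. No strand setting, read length or annotation release is given in the sources used here. Of 61860 lines, 1 names no gene, held 0.00243% of counts and was left out. A second deposited table, whose cells run together, was not used here.

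Symbols came from a name table and GENCODE release 29 (61857 matched), coordinates and union exon lengths from GENCODE 29 on GRCh38. Counts were tested with edgeR 4.0.16 in R 4.3.3: filterByExpr (minimum count 10, minimum total 15) left 16411 genes, with TMM factors, quasi-likelihood F test with robust dispersions, and Benjamini-Hochberg adjustment over all tested genes at 0.05. The SE is the log2 change divided by the square root of F. Pair ratios used log2 of CPM plus 0.5. The scripts were tested on simulated counts.

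No replicates were merged, because counts of any 2 libraries of a group differed beyond sampling noise (a chi-square of 5.08 to 33.3 per gene). The labels do not say that a replicate number marks a shared batch. Members and lists were chosen with earlier results of these data known. All members were named, with up to 2 called genes per direction of largest change and mean CPM of at least 1 from each other list, 8 fixed genes (1 of them is not reported here), and the 3 nearest genes in pattern for CDKN1A, CDKN1B and CCND1. Alternatives were other scalings, other filters, DESeq2 1.42.0, limma-voom (limma 3.58.1), a replicate block, leaving out the 10 most abundant genes or each library in turn, an adjusted p of 0.01, and other priors and lengths.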

Additional observations from a re-analysis of the deposited data

How the results depend on the processing

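The 8 tested members kept their direction under all 16 other settings of the count test, and CDKN1A, CDKN1B, CDKN1C, CDKN2D, CCND1 and CCND3 kept their calls at an adjusted p of 0.05. CDKN2C lost its call with upper quartile scaling (0.25), library totals (0.0072), no filter on low counts (0.19), the replicate block (0.32; edgeR adjusted p = 0.0521) and an adjusted p of 0.01 (0.32). Leaving out 1 library each moved it between 0.21 and 0.36. CCND2 lost its call with library totals (0.27). Library totals left 0 G1 kinases and 0 pocket protein or E2F genes higher, 1 gene of 11p15 higher and 2 lower, and 10 transcription regulators lower. Over all 16411 tested genes this scaling called 3421 higher and 6905 lower, against 5117 and 5091 with TMM. No filter gave 2 G1 kinases and 1 pocket protein or E2F gene higher, and 2 genes of 11p15 lower, and an adjusted p of 0.01 gave 0 and 1 higher. Without the filter 5051 of 40297 genes were called higher and 6288 lower. With 1 library left out, 0 to 2 G1 kinases and 1 to 2 pocket protein or E2F genes were higher and 2 to 6 transcription regulators were lower, 6 without hypoxia replicate 3. Of all genes called, 48.4% to 50.2% were higher with 1 library left out and 49.9% at an adjusted p of 0.01. The RB1 change turned to -0.23 with library totals and -0.040 with no filter, and ranged from -0.13 without hypoxia replicate 3 to 0.18 without hypoxia replicate 1. For CDK6 the range was from -0.16 to 0.033, above 0 without normoxia replicate 2 (0.0012), hypoxia replicate 1 or hypoxia replicate 2 (0.011). Neither gene was called in those cases. With library totals the log2 difference of the summed levels was 1.15 for inhibitors (1.46 with TMM) and -0.32 for D cyclins (-0.0059). Without CDKN1A and CCND1 it was 0.46 for D cyclins and 0.99 for their quotient. Deviations from group means correlated at -0.11, 0.086 and -0.038 for libraries of equal replicate number. With 3 libraries per group these values cannot show whether a number marks a shared batch. The block gave 5 members higher and 2 lower and changed no other member's call. CDKN1C, at 13 to 28 counts in normoxia, was the member most limited by depth.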
